A study of Mus musculus with 144 samples.

Results

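The genes described here are the ATP-binding cassette (ABC) transporter genes of mouse liver, taken as every entry of the gene table whose symbol begins with Abc, a family letter from a to g and a number. The rule finds 50 of the 51912 genes in the table, and uses no measured value. The series holds 144 liver libraries, 36 in each of 4 series, with 6 libraries at each of 6 times of day, and it compares time of day, RNA fraction and loss of the clock gene Bmal1 (Arntl). All mice were male C57BL/6J, kept in 12 h of light and 12 h of darkness with food and water always available, and were killed at ZT2, 6, 10, 14, 18 or 22, where ZT is hours after lights on. Wild-type mice gave total RNA, nuclear RNA (nuclei washed in hypotonic buffer and spun through a sucrose cushion) and polysomal RNA (tissue crushed under liquid nitrogen in buffer with cycloheximide, which stalls ribosomes, then fractionated on a sucrose gradient). Bmal1-/- mice gave total RNA. The age of the mice, the altered part of Bmal1 and whether the 6 libraries of a group came from separate mice are not given in the sources used here, so p-values measure the spread between these libraries. Libraries were made with Lexogen's QuantSeq kit, which reads the 3′ end of polyadenylated transcripts. Values are in CPM, the gene's counts scaled to a common library total. Each transcript gives its 3′ end whatever its length, so CPM was not divided by length.

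ABC proteins use ATP to move substrates across membranes, and a smaller group without membrane segments works on ribosomes. In hepatocytes the pumps of the canalicular membrane make bile: Abcb11 exports bile salts, Abcb4 moves phosphatidylcholine into bile, Abcg5 and Abcg8 form a joint sterol pump, Abcc2 exports conjugated bilirubin, and Abcb1a, Abcb1b and Abcg2 export drugs. Other members carry lipids within cells, load peroxisomes with fatty acids, work in mitochondria, or export conjugates at the blood side of the cell.

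Total counts per library spanned 5316601 to 9831142 (wild-type total RNA), 1662449 to 6620128 (nuclear), 2578048 to 13068044 (polysomal) and 4379549 to 14281894 (Bmal1-/-). The 5 hepatocyte markers had a median sum of 80010 CPM in wild-type and 62900 CPM in Bmal1-/- libraries, 48910 CPM in nuclear and 48710 CPM in polysomal libraries. Dbp and Nr1d1, both outputs of the clock, gave the check of the genotype. The altered part of Bmal1 is not given, so whether 3′ tags cover it is unknown. Mean Dbp was 27.0 CPM in wild-type and 2.74 CPM in Bmal1-/- libraries, and mean Nr1d1 was 14.8 and 0.713 CPM. Arntl tags themselves averaged 6.74 ± 5.40 CPM in wild-type and 11.5 ± 2.98 CPM in Bmal1-/- libraries (SD, n = 36 each). The cholangiocyte list (Krt19, Krt7, Epcam, Sox9, Spp1, none at 0) summed to 16.2 to 66.6 CPM in wild-type and 45.8 to 135.7 CPM in Bmal1-/- libraries, with mean Sox9 at 22.5 and 60.5 CPM and mean Krt19 at 0.499 and 0.656 CPM. Its part in the Bmal1-/- results below was not tested. Libraries stand apart in 2 ways. In 4 libraries of ZT22, 1 in each series, the female-specific transcript Xist was above 100 CPM although the labels say male, against at most 5.67 CPM elsewhere. In all 6 polysomal libraries numbered replicate 1, a list of 3 lung markers summed to 55.8 to 915.2 CPM, against at most 1.45 CPM in every other library.

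In wild-type total RNA the ABC genes together made up 2171.3 CPM, and 4 of them held 64.1% of that sum. Abcd3, which brings fatty acids and bile acid precursors into peroxisomes, was highest at 532.0 ± 130.8 CPM (SD, n = 36 libraries over the 6 times, as in all means below). The canalicular pumps Abcc2 at 361.8 ± 96.3 CPM, Abcb4 at 318.5 ± 80.2 CPM and Abcb11 at 179.6 ± 58.4 CPM followed, and the ranges of neighbours in this order overlapped. Abca8a, a member of the ABCA lipid transporters with a poorly known substrate, came next at 115.8 ± 33.2 CPM. Below these, Abcg2 was at 96.2 ± 22.4 CPM, Abca1, which loads cholesterol onto apolipoprotein A-I, at 67.8 ± 15.3 CPM, Abcg8 at 42.3 ± 19.5 CPM and Abcg5 at 37.9 ± 14.7 CPM. In all, 5 members exceeded 100 CPM and 24 exceeded 10 CPM. At the other end, 12 members never reached the mean of 10 counts per library asked for a test: Abca4, Abca12, Abca13, Abca14, Abca15, Abca16, Abca17, Abcb5, Abcc1, Abcc8, Abcc12 and Abcg4. The highest count of any of them in any library was 19, for Abcc1, and Abca15, Abca16 and Abcb5 had no count at all. The sum over all members was 2171 ± 311.2 CPM in wild-type total RNA, 2188 ± 141.2 in Bmal1-/- total RNA, 2385 ± 389.3 in nuclear RNA and 2128 ± 459.8 in polysomal RNA.

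**Figure D1:**
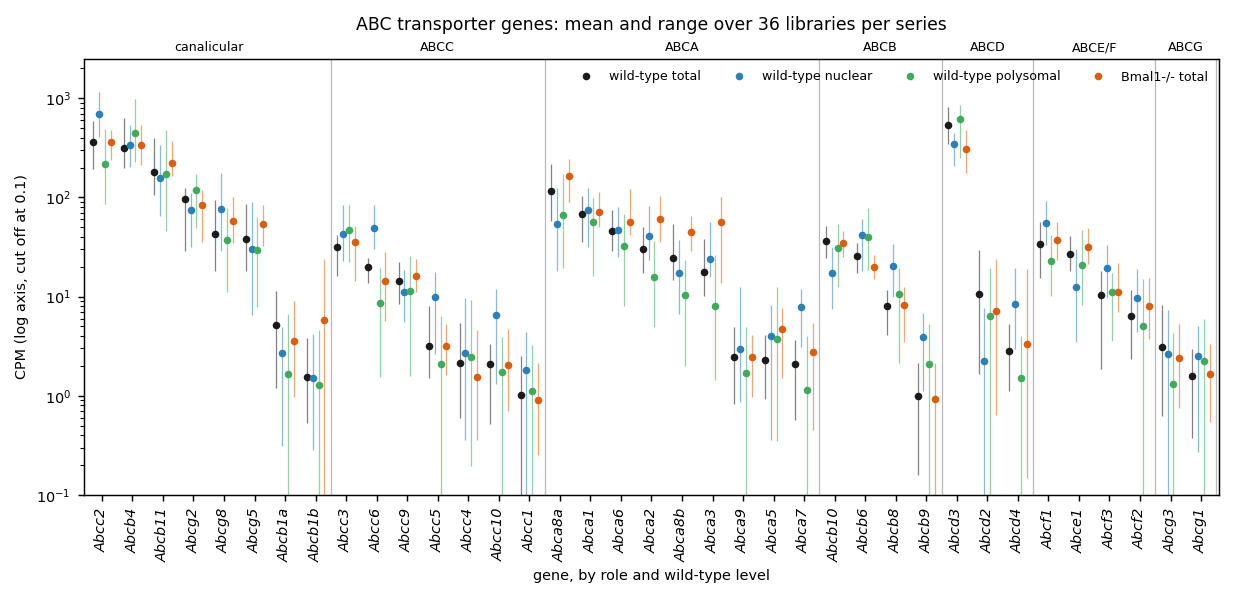
Mean level of 37 ABC genes in each of the 4 series, in CPM on a log axis that stops at 0.1, grouped by role; points are means of 36 libraries and lines run from the lowest to the highest library. Abcd3, Abcc2, Abcb4, Abcb11 and Abca8a are above 100 CPM in wild-type total RNA, and the members range over more than 2 decades.

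The daily course of the members was read from a 24 h cosine fitted to all 6 times within each series, with edgeR's quasi-likelihood test and Benjamini-Hochberg adjustment over all genes tested. In wild-type total RNA 7 of the 37 members tested varied with time of day, beside 18.9% of all genes tested, so the members' share (18.9%) equalled that of all genes. Of the 7, 5 were canalicular pumps (Abcb11, Abcb1a, Abcc2, Abcg5 and Abcg8, of 8 tested), and the other 2 were Abcd4, which helps release vitamin B12 from lysosomes, and Abcb8, a mitochondrial transporter. No gene of the ABCA, ABCC (blood side and other plasma membrane), ABCE and ABCF or other ABCG groups passed the test in this series.

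Abcg8, which forms the sterol pump with Abcg5, had the lowest p of the members. Its lowest, median and highest values among 6 wild-type libraries were 53.9, 61.4 and 84.9 CPM at ZT10 and 17.9, 21.2 and 25.4 CPM at ZT18. All libraries of ZT10 were above all libraries of ZT18, and the mean at ZT10 was 3.01 times that at ZT18. The fitted course of Abcg8 peaked at ZT 7.98 and its fitted peak was 2.50 times its trough (adjusted p = 1.05e-05), a quantity called the ratio from here on. Abcg5 ran from 42.7 (median 51.9, highest 57.9) CPM at ZT10 to 20.7 (26.7, 32.2) CPM at ZT18. These Abcg5 libraries did not overlap either, and the fit peaked at ZT 9.31 with a ratio of 1.89 (adjusted p = 0.00143). At ZT2 1 library, replicate 2, stood far above the other 5 for both genes, at 93.9 CPM for Abcg8 and 86.1 CPM for Abcg5 against group medians of 29.6 and 26.8 CPM. Without it the adjusted p was 2.01e-07 for Abcg8 and 3.89e-06 for Abcg5.

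Abcg5 and Abcg8 start from opposite strands of one short stretch, which is why their promoter windows are shown. Abcg5 (ENSMUSG00000040505.13) lies on the minus strand at chr17:84658174-84683011 and Abcg8 (ENSMUSG00000024254.15) on the plus strand at chr17:84676302-84700333, in the files' coordinates. The RefSeq starts (GRCm38.p6) of the windows shown are 110 bp apart and point away from each other. Each window runs from 250 bases before to 50 bases after the start, 5′ to 3′ on the gene's own strand. Capitals mark the 209 bases that both windows hold, chr17:84682962-84683170. Abcg8 has a further RefSeq window, not shown. Of the 50 members, 38 have a window in that table.
Abcg5, chr17:84682962-84683261, minus strand: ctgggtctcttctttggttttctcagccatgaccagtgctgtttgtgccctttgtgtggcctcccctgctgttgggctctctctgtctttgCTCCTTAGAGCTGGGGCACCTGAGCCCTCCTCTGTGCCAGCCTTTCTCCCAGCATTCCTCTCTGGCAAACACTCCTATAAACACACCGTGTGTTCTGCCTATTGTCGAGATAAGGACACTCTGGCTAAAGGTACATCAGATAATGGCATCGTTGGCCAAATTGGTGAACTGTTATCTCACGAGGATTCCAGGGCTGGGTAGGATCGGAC
Abcg8, chr17:84682871-84683170, plus strand: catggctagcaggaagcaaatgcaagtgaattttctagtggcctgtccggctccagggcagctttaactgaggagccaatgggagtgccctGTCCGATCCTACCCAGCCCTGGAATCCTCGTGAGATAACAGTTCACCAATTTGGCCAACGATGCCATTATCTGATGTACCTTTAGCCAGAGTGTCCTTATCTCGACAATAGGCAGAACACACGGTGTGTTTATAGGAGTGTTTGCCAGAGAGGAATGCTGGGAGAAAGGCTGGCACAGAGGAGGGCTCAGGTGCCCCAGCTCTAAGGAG
The letters of 4 motifs were searched on both strands of these windows and of all 32851 promoter windows of the same length. The shared stretch holds GATAA, the letters read by GATA factors, 3 times, and 25.409% of all windows hold it. Neither window holds the clock E-box CACGTG (7.15% of all windows), the D-box TTATGTAA (0.938%) or AGGTCA, the core read by many nuclear receptors (16.255%). The windows of Abcb11 and Abcc2 each hold AGGTCA 1 time. Matches describe letters only. The annotated spans of Abcg5 and Abcg8 overlap, so counts could mix if strand was not used, which the labels do not say. Their annotated 3′ ends, where these tags fall, are 42159 bp apart.

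Among the other canalicular pumps that passed, fitted peaks ran from ZT 3.04 for Abcb11 to ZT 12.0 for Abcb1a. Differences in peak time between genes were not tested. Abcc2, the exporter of bilirubin conjugates, had 370.0 to 595.5 CPM (median 473.9) at ZT10 and 242.8 to 382.7 CPM (median 281.5) at ZT18. These ranges overlapped between 370.0 and 382.7 CPM, and the fit peaked at ZT 9.64 with a ratio of 1.52 (adjusted p = 0.00243). Abcb11, the bile salt export pump, was high early in the light phase, with 194.8 to 400.4 CPM (median 237.0) at ZT2 and 104.8 to 275.7 CPM (median 120.1) at ZT14. Its fit peaked at ZT 3.04 with a ratio of 1.78 (adjusted p = 0.00024), and 1 library at ZT14, replicate 4, lay inside the ZT2 range. Abcb1a, a drug export pump of low level, peaked at ZT 12.0 with a ratio of 1.91 (adjusted p = 0.0234). Abcd4 peaked in the dark, at ZT 16.01, with a ratio of 1.87 (adjusted p = 0.00317), and Abcb8 at ZT 6.25 with a ratio of 1.44 (adjusted p = 0.0472). Abcb4, the phospholipid pump, and Abcg2 did not pass the test. With replicates 4 to 6 alone 3 of 37 members passed, beside 5.32% of all genes in that fit, and Abcb11 was then at an adjusted p of 0.206.

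**Figure D2:**
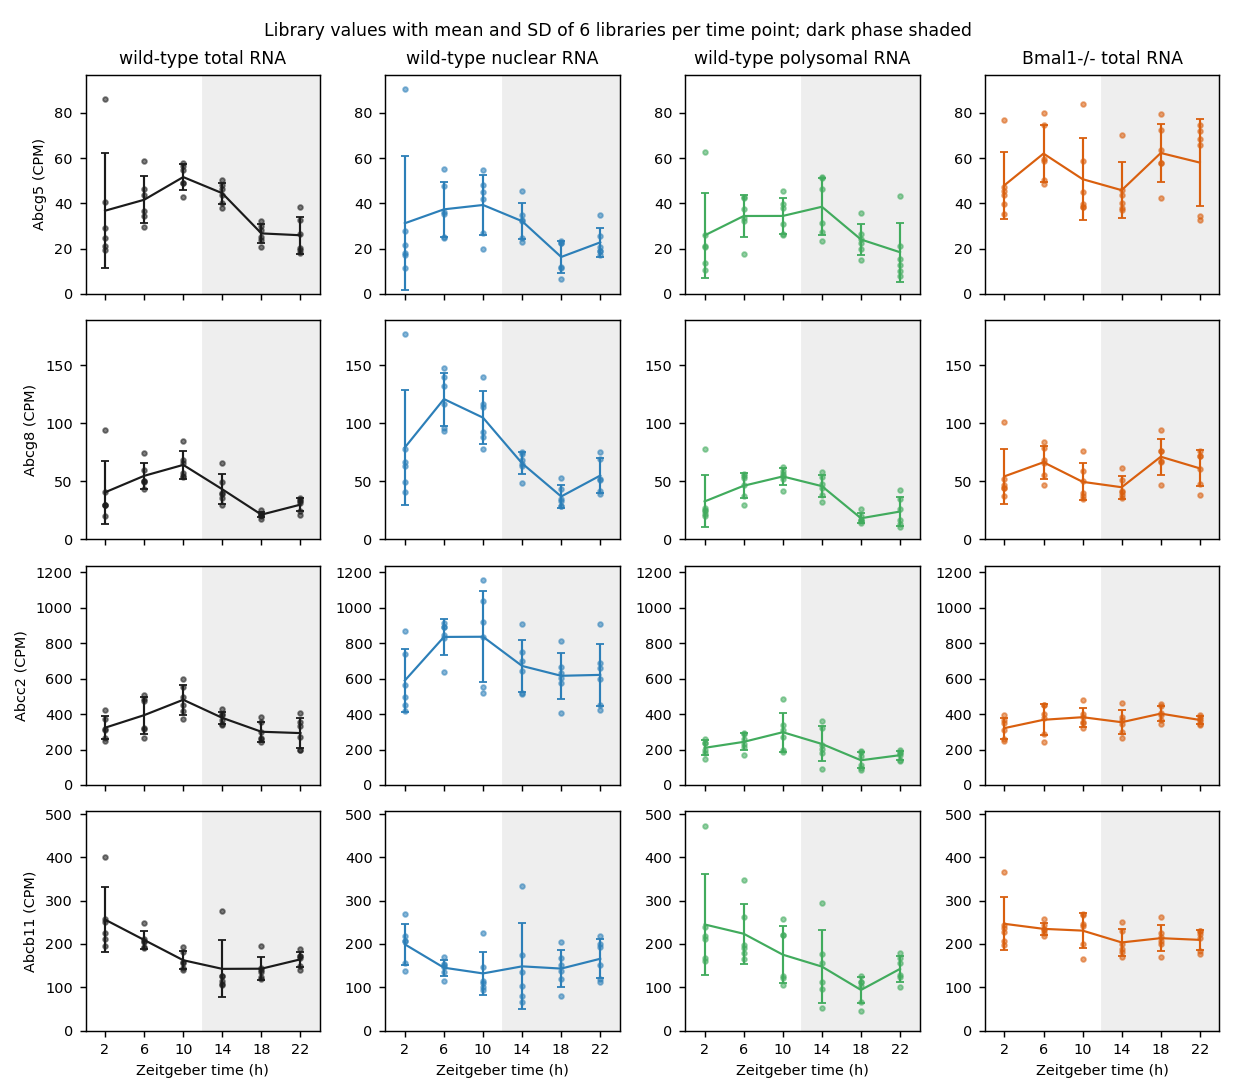
Level in CPM against ZT in hours for Abcg5, Abcg8, Abcc2 and Abcb11 in the 4 series; small points are libraries, lines join the means of 6 libraries with bars of 1 SD, and the dark phase is shaded. Abcg8 is about 3 times higher at ZT10 than at ZT18 in wild-type total, nuclear and polysomal RNA, and its ZT10 mean is below its ZT18 mean in Bmal1-/- RNA.

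In nuclear RNA 2 of 36 members varied with time, both of them the sterol pump genes, beside 5.99% of all genes. Nuclear Abcg8 had 77.9 to 139.5 CPM (median 103.2) at ZT10 and 28.5 to 53.1 CPM (median 34.0) at ZT18. These libraries did not overlap, and Abcg8 peaked at ZT 7.004 with a ratio of 3.01 (adjusted p = 6.3e-07, edgeR). Nuclear Abcg5 peaked at ZT 7.77 with a ratio of 2.17 (adjusted p = 0.0143). Polysomal RNA had 7 of 31 members that varied, beside 7.9% of all genes: Abcg8, Abcg5, Abcc2, Abcb11, Abca8b, Abcb6 and Abca6. Polysomal Abcg8 had 41.5 to 62.0 CPM (median 55.3) at ZT10 and 14.03 to 25.8 CPM (median 16.8) at ZT18, again without overlap, with a peak at ZT 9.31 and a ratio of 2.595 (adjusted p = 0.000128). Polysomal Abcg5 peaked at ZT 10.97 (ratio 1.96, adjusted p = 0.0344), Abcc2 at ZT 9.24 (1.77, 0.0143) and Abcb11 at ZT 5.31 (1.93, 0.0492). The remaining 3 were Abca8b at ZT 6.55 with a ratio of 2.79, Abcb6, which transports porphyrins, at ZT 17.9 with 1.86, and Abca6 at ZT 10.3 with 1.72. The calls of Abcb11 and Abca6 (adjusted p = 0.0485) were the weakest. Without replicate 1, the polysomal libraries with lung markers, 5 members passed, and Abcb11 and Abca6 were at 0.0869 and 0.122. Neither passed without the polysomal library high in Xist (0.0514 and 0.0834), or without the ZT2 library highest in Abcg8 (0.06 and 0.0672). Replicates 1 to 3 alone left 2 polysomal calls (1.12% of all genes) and replicates 4 to 6 alone left 4 (5.54%). A difference in course between fractions was tested directly. Of the members, 0 differed between nuclear and total RNA and 0 between polysomal and total RNA by edgeR's quasi-likelihood test, and DESeq2 also called 0 members in each. At an unadjusted p below 0.05 there were 1 (Abcd4) and 4 (Abca1, Abca8b, Abcb6 and Abce1, named after their values were seen). Across all genes that test called 0.0% in both comparisons, so it gives no basis to order the fractions.

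In Bmal1-/- total RNA 0 of 37 members varied with time by edgeR's quasi-likelihood test and 0 by DESeq2, beside 0.00825% of all genes tested. At an unadjusted p below 0.05 there were 3, Abcd4, Abca2 and Abcb11, named after their values were seen. The difference in course from wild-type total RNA was tested as an interaction, and 2 of 37 members passed, beside 5.18% of all genes: Abcg8 (adjusted p = 0.000244) and Abcg5 (adjusted p = 0.0209). In Bmal1-/- libraries Abcg8 had 34.7 to 76.4 CPM (median 45.3) at ZT10 and 46.6 to 93.9 CPM (median 71.8) at ZT18. These Bmal1-/- libraries overlapped, and the ZT10 mean was 0.696 times the ZT18 mean, against 3.01 times in wild-type. Abcg5 means ran from 45.9 CPM at ZT14 to 62.3 CPM at ZT18 in Bmal1-/- libraries and from 25.9 CPM at ZT22 to 51.7 CPM at ZT10 in wild-type libraries. Its wild-type and Bmal1-/- means thus lay closest at ZT10 and ZT14 and furthest apart at ZT18 and ZT22. The means of Abcg8 were also furthest apart at ZT18 and ZT22, and at ZT10 the wild-type mean was the higher one (64.2 against 49.6 CPM). The 2 interaction calls held without the ZT2 library highest in Abcg8 of each series (adjusted p = 3.08e-05 and 0.00261). The Abcg8 call also held within replicates 1 to 3 (adjusted p = 0.0308) and replicates 4 to 6 (0.0189), while the Abcg5 call did not (0.276 and 0.206). For Abcc2 and Abcb11 the adjusted p of the difference was 0.0776 and 0.123 over all libraries, so neither passed. In subsets of the libraries Abcb11 passed within replicates 1 to 3 (0.0091) but not 4 to 6 (0.718), and Abcc2 within replicates 4 to 6 (0.0493) but not 1 to 3 (0.66).

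The level over the whole day was compared between genotypes as the mean of the 6 time-point differences. In Bmal1-/- livers Abcb1b, Abca3, Abca5, Abca2 and Abca8b were higher and Abcd3, Abcd2, Abcb1a, Abcc4 and Abcc6 lower, and these were the 10 largest changes that passed. Of 37 members tested, 21 passed (56.8%), 11 higher and 10 lower, beside 44.1% of all genes tested. The median log2 change was -0.01 over the members and 0.01 over all genes. The counts by role ran in different directions: of the 9 ABCA genes tested 6 were higher and 0 lower, of the 4 ABCD genes 0 higher and 3 lower, and of the 8 canalicular pumps 4 higher and 2 lower.

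Among the canalicular pumps, Abcb1b ranged from 0.527 to 3.81 CPM (median 1.52) in wild-type and from 0 to 24.2 CPM (median 5.15) in Bmal1-/- libraries. In 26 of 36 Bmal1-/- libraries Abcb1b exceeded every wild-type library and in 3 it was below all of them. Its log2 change was 1.76 (SE 0.229, adjusted p = 2.16e-09, edgeR). Its close copy Abcb1a went the other way, from 1.204 to 11.4 CPM (median 4.99) in wild-type and 0.980 to 9.13 CPM (median 3.41) in Bmal1-/- libraries, with a log2 change of -0.60 (SE 0.140, adjusted p = 0.000267). The groups overlapped widely for Abcb1a, and whether reads were shared between these similar genes was not tested. Their sum was 6.74 ± 2.63 CPM in wild-type and 9.38 ± 4.93 CPM in Bmal1-/- libraries. Abcg5 rose by a log2 change of 0.47 (SE 0.0926, adjusted p = 2.59e-05), Abcg8 by 0.43 (SE 0.0921, adjusted p = 7.89e-05) and Abcb11 by 0.25 (SE 0.0645, adjusted p = 0.0012). All of these rises were seen at 5 of 6 times. Abcg2 fell by 0.28 on the log2 scale. Abcc2 and Abcb4, the 2 pumps highest in wild-type liver, had log2 changes of -0.06 (SE 0.0644) and -0.01 (SE 0.0741) that did not pass.

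The ABCA genes held 4 of the 5 largest increases. Abca3, known for loading surfactant lipid in lung, ranged from 10.2 to 37.9 CPM (median 17.5) in wild-type and from 13.6 to 101.8 CPM (median 57.4) in Bmal1-/- libraries. Abca3 rose by 1.56 on the log2 scale (SE 0.164, adjusted p = 3.64e-12). The Bmal1-/- libraries were uneven, with medians of 18.4 CPM in replicates 1 and 2 and 57.1 to 95.5 CPM in replicates 3 to 6. The summed lung markers were at most 1.45 CPM in these libraries. Abca2, an endosomal and lysosomal lipid transporter, ranged from 17.2 to 50.8 CPM (median 29.0) in wild-type and from 35.2 to 102.4 CPM (median 58.9) in Bmal1-/- libraries, of which 26 of 36 exceeded every wild-type library (log2 change 0.91, SE 0.0775, adjusted p = 4.89e-16). Abca5, also lysosomal, went from 0.920 to 4.06 CPM (median 2.23) to 1.53 to 7.65 CPM (median 4.52), a log2 change of 0.93 (SE 0.115, adjusted p = 3.73e-10). Abca8b was at 14.7 to 53.6 CPM (median 22.9) and 29.0 to 64.8 CPM (median 44.4), a log2 change of 0.78 (SE 0.0762, adjusted p = 1.49e-13). Each of these 4 genes was higher in Bmal1-/- means at 6 of 6 times. Abca8a (log2 change 0.43) and Abca6 (0.19) also rose. Abca8a and Abca8b are similar neighbours on chromosome 11, and their sum was 140.6 ± 34.5 CPM in wild-type and 210.5 ± 47.4 CPM in Bmal1-/- libraries. Abca1, Abca7 and Abca9 did not pass, with log2 changes of -0.01, 0.30 and -0.09.

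Abcd3 showed the largest fall among abundant members. It ranged from 345.6 to 819.0 CPM (median 491.3) in wild-type and from 177.7 to 480.2 CPM (median 310.2) in Bmal1-/- libraries. In 29 of 36 Bmal1-/- libraries Abcd3 was below every wild-type library. Abcd3 changed by -0.88 on the log2 scale (SE 0.0715, adjusted p = 9.51e-17), by -1.10 in replicates 1 to 3 and by -0.62 in replicates 4 to 6. Abcd2, a peroxisomal carrier of fatty acids, had a log2 change of -0.64 (SE 0.255, adjusted p = 0.0357). The Abcd2 call is not firm: with replicates 4 to 6 alone its change was 0.25 (adjusted p = 0.622), and without the 4 libraries high in Xist its adjusted p was 0.0597. Abcd4 had a log2 change of 0.09 and did not pass.

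Among the ABCC genes of the blood side and other plasma membrane, Abcc4, an exporter of bile acids and cyclic nucleotides, fell by 0.57 (SE 0.159, adjusted p = 0.00223, edgeR) on the log2 scale. Abcc6, needed for the release of ATP from hepatocytes, fell by 0.57 (SE 0.0948, adjusted p = 8.25e-07), from 13.8 to 24.4 CPM (median 20.1) in wild-type to 5.74 to 28.2 CPM (median 14.4) in Bmal1-/- libraries. In 17 of 36 Bmal1-/- libraries Abcc6 was below every wild-type library and in 1 above. Abcc3, Abcc5, Abcc9 and Abcc10 did not pass, with log2 changes from -0.13 to 0.08. In mitochondria, Abcb6 fell by 0.47 and Abcb10, a haem synthesis gene, by 0.17 on the log2 scale, while Abcb8 was at -0.05. Abcg3, a rodent-specific ABCG gene, fell by 0.50 on the log2 scale, and Abcg1 was at -0.05. Abce1, which splits ribosomes for reuse, was at 0.15 with an adjusted p of 0.0487, the weakest call, and lost it under DESeq2 (adjusted p = 0.054). With replicates 4 to 6 alone Abce1 was at -0.01 and Abcb10 at 0.01. Abcf1, Abcf2 and Abcf3 did not pass (log2 changes 0.05, 0.24 and 0.00). With replicates 4 to 6 alone 13 of 37 members passed, beside 33.5% of all genes in that fit. In the list of 34 genes of the same pathways, 31 were tested and 5 rose and 15 fell, beside 22.4% of all genes higher and 21.7% lower. Slc47a1, a canalicular cation exporter, fell by 2.31 on the log2 scale (mean 95.7 to 20.7 CPM), Slc10a2, a bile acid carrier, by 1.89 and Slc22a7 by 1.38, while Slco1a4, an uptake carrier, rose by 1.47 (mean 35.98 to 105.9 CPM), Scarb1 by 0.61 and the flippase Atp8b1 by 0.36.

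**Figure D3:**
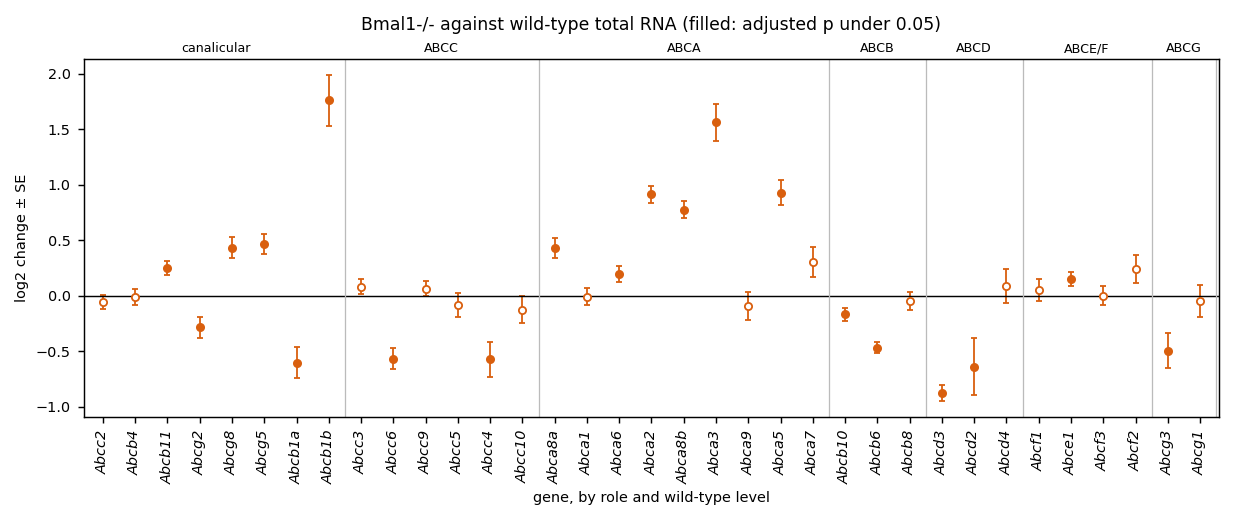
Log2 change of the level in Bmal1-/- against wild-type total RNA for 35 of the ABC genes tested, by role, with bars of 1 SE; filled points have an adjusted p below 0.05. The points run from -0.88 for Abcd3 to 1.76 for Abcb1b, and the filled ABCA points lie above 0 while the filled ABCD points lie below it.

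The nuclear and polysomal series were compared with the same 36 wild-type total RNA libraries as the Bmal1-/- series, so the 3 comparisons share their control and are given side by side. CPM is a share of each library, and the fractions were prepared differently, so a lower value says that a gene took a smaller share of that fraction. Fewer cells of a type and less RNA per cell cannot be told apart in any of the comparisons. Abcb1b did not reach the count minimum in the nuclear and polysomal comparisons, and Abcb9 reached it in the nuclear one alone. The minimum was a mean over the libraries of both series, so a gene could reach it through its higher series. Genes below it in a series by itself included Abcb9 in total RNA and Abcd2 in nuclear RNA. In polysomal RNA they included Abcb1a, Abca7, Abca9, Abcd4 and Abcg3. The largest nuclear differences (Abcd2 and Abcb9) and the largest polysomal difference (Abcb1a) thus rest on such genes.

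In nuclear RNA 31 of 37 members differed from total RNA, 19 higher and 12 lower, beside 83.8% of all genes tested (41.6% higher and 42.1% lower), and 83.8% was also the members' share. The median log2 difference was 0.41 over the members and -0.01 over all genes. The transcripts retained in nuclei, Malat1 and Neat1, summed to 689.2 to 7760 CPM (median 2726) in nuclear and 507.7 to 2999 CPM (median 1964) in total RNA, neither at 0, so the ranges overlapped, and the part of this in the members' differences was not tested. The 10 largest that passed were Abcd2, Abcb9, Abca7, Abcc5, Abcc10, Abcd4, Abcb8, Abcc6, Abce1 and Abca8a. Abcc6 was the one member whose libraries did not overlap, with 13.8 to 24.4 CPM (median 20.1) in total RNA and 30.1 to 83.3 CPM (median 48.8) in nuclear RNA, a log2 difference of 1.26 (SE 0.0667, adjusted p = 3.73e-28, edgeR). The share of all genes without such overlap was not computed. Abcc5, an exporter of cyclic nucleotides, was higher by 1.54 and Abcc10 by 1.53, each at 6 of 6 times. Among genes of low level, Abcb9, a lysosomal peptide transporter, was at 0.158 to 2.14 CPM (median 0.992) in total and 1.11 to 6.84 CPM (median 3.89) in nuclear RNA, a log2 difference of 1.91 (SE 0.174). Abca7, a phospholipid transporter, was higher by 1.81, Abcd4 by 1.51 and Abcb8 by 1.31. Abcd2 stood at the other end, with 1.67 to 29.8 CPM (median 10.3) in total and 0 to 7.72 CPM (median 1.71) in nuclear RNA, a log2 difference of -2.35 (SE 0.233, adjusted p = 2.07e-14). Abce1 had a log2 difference of -1.23 and Abca8a of -1.17, with 31 and 23 of 36 nuclear libraries below every total RNA library.

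The canalicular pumps split in nuclear RNA. Abcc2 was higher, at 408.1 to 1157 CPM (median 663.6) against 195.1 to 595.5 CPM (median 353.6) in total RNA, a log2 difference of 0.88 (SE 0.0679, adjusted p = 1.19e-19). Abcg8 was higher, at 28.5 to 176.4 CPM (median 68.9) against 17.9 to 93.9 CPM (median 37.3), a log2 difference of 0.79 (SE 0.0947, adjusted p = 9.23e-12). Its partner Abcg5 was lower, at 6.58 to 90.6 CPM (median 24.9) against 18.2 to 86.1 CPM (median 37.4), a log2 difference of -0.43 (SE 0.114, adjusted p = 0.000456). Mean Abcg8 was thus above mean Abcg5 in nuclear RNA by more than in total RNA, at 77.0 and 29.9 CPM against 42.3 and 37.9 CPM, although this contrast between the genes was not tested. Abcb1a (-0.99), Abcg2 (-0.42) and Abcb11 (-0.25) were lower, and Abcb4 was at 0.03 and did not pass. Further calls had log2 differences from 0.41 to 0.85 among the higher (Abcf3, Abca5, Abcb6, Abcf1, Abcg1, Abcf2, Abcc3, Abca2 and Abca3) and from -1.12 to -0.40 among the lower (Abcb10, Abcd3, Abca8b and Abcc9). Abca1, Abca6, Abca9, Abcc4 and Abcg3 did not pass. Of the pathway list 13 rose and 12 fell among 31, with Slc22a7 at 2.17, Tapbp at 2.14 and Apoa1 at 1.503, and Slco1b2 at -1.66, Tmem30a at -1.60 and Slc10a1 at -1.50.

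In polysomal RNA 30 of 36 members differed from total RNA, 8 higher and 22 lower, beside 76.0% of all genes tested (38.8% higher and 37.2% lower). The median log2 difference was -0.41 over the members and 0.02 over all genes. In the same polysomal libraries Malat1 and Neat1 summed to 25.02 to 144 CPM (median 58.7), and 5 erythroid markers, none at 0, to 2157 to 20820 CPM (median 8852) against 546.2 to 13130 CPM (median 2585) in total RNA. Their part in the members' differences was not tested. With DESeq2's median-ratio size factors in edgeR the median of all genes was -0.07, and 7 members were higher and 24 lower. Without replicate 1, whose polysomal libraries carry the lung markers, 31 of 37 passed, 9 higher and 22 lower. The ABCA genes were lower in 8 of 9 cases, but only 7 of the 9 reached the count minimum in polysomal RNA by itself. Abca7 and Abca9, at means of 1.14 and 1.69 CPM there, reached it through total RNA. Abca8b was at 14.7 to 53.6 CPM (median 22.9) in total and 2.01 to 23.5 CPM (median 9.94) in polysomal RNA, with 28 of 36 polysomal libraries below every total RNA library and a log2 difference of -1.45 (SE 0.136, adjusted p = 1.69e-15, edgeR). On the log2 scale Abca3 differed by -1.25, Abca2 by -1.005, Abca7 by -0.97, Abca8a by -0.89, Abca9 by -0.63, Abca6 by -0.59 and Abca1 by -0.36, while Abca5 was higher by 0.54.

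Of the other groups in polysomal RNA, Abcc6 was at 13.8 to 24.4 CPM (median 20.1) in total and 1.54 to 19.3 CPM (median 8.54) in polysomal RNA, a log2 difference of -1.29 (SE 0.117, adjusted p = 4.26e-16). Abcc6 thus had a log2 difference of 1.26 in nuclear and -1.29 in polysomal RNA, each against the same total RNA. Abcc2 likewise had 0.88 and -0.83, with 86.6 to 487.2 CPM (median 196.8) in polysomal RNA. Abcb1a had the largest polysomal difference, -1.68 (SE 0.221, adjusted p = 3.09e-10), from a low level of 0 to 6.70 CPM (median 1.64). Abcg3 was at -1.30, Abcd4 at -0.96 and Abcd2 at -0.84. The sterol pump genes were both lower, Abcg5 at -0.44 and Abcg8 at -0.28. Genes higher in polysomal RNA included Abca5, Abcb6 (0.53), Abcc3 (0.51), Abcb4 (0.41), Abcb8 (0.34) and Abcg2 (0.25). The Abcg2 difference was -0.02 with replicates 1 to 3 alone (adjusted p = 0.902). Abcb10, Abcc5, Abcc9, Abce1, Abcf1 and Abcf2 were lower, with log2 differences from -0.68 to -0.32. Abcd3, Abcb11, Abcc4, Abcc10, Abcf3 and Abcg1 did not pass. The pathway list had 13 of 31 higher and 9 lower, with Nr1h2 at 1.32, Slc22a7 at 1.011 and Pex19 at 0.99, and Nr1i3 at -1.05, Nr5a2 at -0.98 and Slco1a4 at -0.91.

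**Figure D4:**
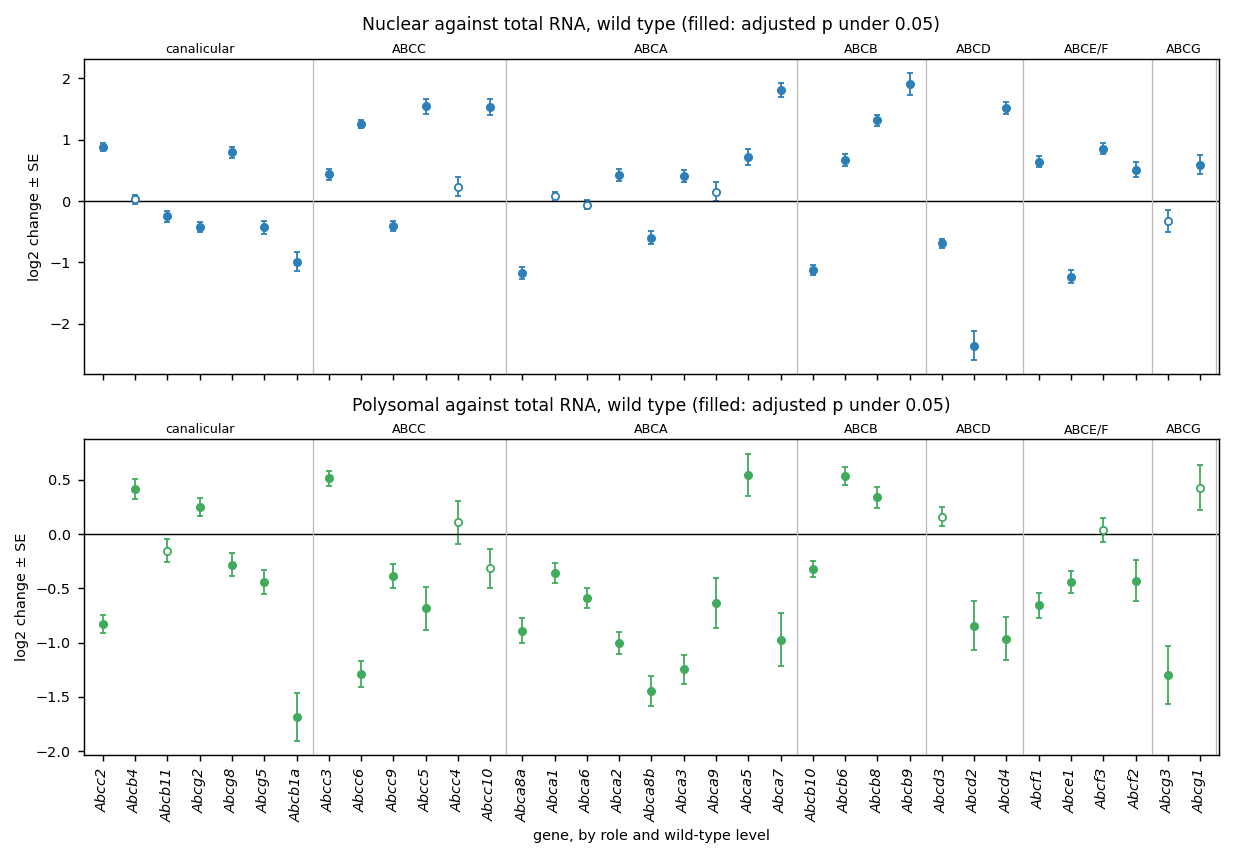
Log2 difference of the level in nuclear and in polysomal against total RNA for ABC genes tested, by role, with bars of 1 SE. Abcc6 and Abcc2 lie above 0 in nuclear and below 0 in polysomal RNA, at 1.26 and -1.29 and at 0.88 and -0.83.

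The deposited list of 29199 polyadenylation sites was used to ask where the tags of each gene ended. After sites were assigned by strand and position, 78 sites fell in 22 members, and 20 members had at least 2. A site's usage is its share of the tags of all sites of its gene, and its position is given as the distance from the annotated gene end. Whether a site lies in an exon or intron was not analysed here. In Bmal1-/- total RNA 7 of 46 member sites changed usage, 2 higher and 5 lower, in 5 of 14 genes, beside 8.75% of all sites tested (4.63% higher and 4.12% lower). Of the 7, 3 were in Abcc2, whose total level did not differ between genotypes. The Abcc2 site at chr19:43837827-43838020, 312 bp before the gene end, took 37.0% of tags in wild-type and 45.4% in Bmal1-/- libraries, higher at 6 of 6 times (8.44 percentage points, adjusted p = 1.08e-06, edgeR). The site at the gene end fell from 21.6% to 17.0% (adjusted p = 0.038, edgeR) and a site 34670 bp before it from 8.83% to 5.59% (adjusted p = 0.000562). The other 4 changes were of at most 5.46 points, and were in Abcf1 (52.5% to 47.0%), Abcb11 (85.6% to 82.1%), Abcg5 (14.7% to 12.5%) and Abcg8 (15.8% to 18.01%). Their adjusted p in edgeR ran from 0.0312 to 0.0469. With replicates 1 to 3 alone 2 member sites were higher and 3 lower of 45, beside 607 of 10666 sites called. With replicates 4 to 6 alone 5 were higher and 1 lower of 46, beside 1308 of 10892 sites called.

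In nuclear RNA 29 of 36 member sites differed in usage from total RNA, in 12 of 12 genes, beside 78.7% of all sites (35.7% higher and 43.0% lower). In percentage points the largest nuclear difference among the members was in Abce1. Its site 6924 bp before the gene end held 16.9% of tags in total and 74.9% in nuclear RNA (adjusted p = 4.02e-20, edgeR). However, nuclear libraries had a mean of only 11.2 Abce1 site tags, below the minimum asked of a gene, against 134.1 in total RNA. Abce1 thus entered this comparison through total RNA, and its nuclear share rests on few tags. Abca3 used the site 103 bp before its end for 53.7% of tags in total and 19.5% in nuclear RNA, and the site 3 bp past the annotated end for 40.7% and 73.7%. Abcd3 used its site 23 bp before the end for 87.3% and 55.2%, and one 3286 bp before it for 1.58% and 25.9%. On the log2 scale of usage that Abcd3 site differed most, by 3.99 against 2.07 for the Abce1 site. Abca8a used the site 58 bp before its end for 91.3% and 66.1%. In polysomal RNA 32 of 36 member sites differed, in 12 of 12 genes, beside 70.4% of all sites (33.4% higher and 37.1% lower). There Abcd3 gained usage at a different site, 56106 bp before the gene end, from 5.52% to 28.1% (adjusted p = 1.5e-26, edgeR), while its main site fell from 87.3% to 65.5%. The gaining site, at chr3:121815010-121815071, lies beside the annotated start of Abcd3, which is at 121815302 on the minus strand. Whether its tags mark true transcript ends was not tested. Abcf1 used the site at its end for 52.5% in total and 71.1% in polysomal RNA, the early Abce1 site rose from 16.9% to 35.3%, and the Abcc2 site 312 bp before the end fell from 37.0% to 21.4%. No site of the members varied with time of day in wild-type total RNA: 0 of 40 passed by edgeR's quasi-likelihood test, beside 0.368% of all sites, and 3 had an unadjusted p below 0.05 (in Abcc2, Abcg8 and Abcf1, named after their values were seen). No other tool was run on the sites.

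**Figure D5:**
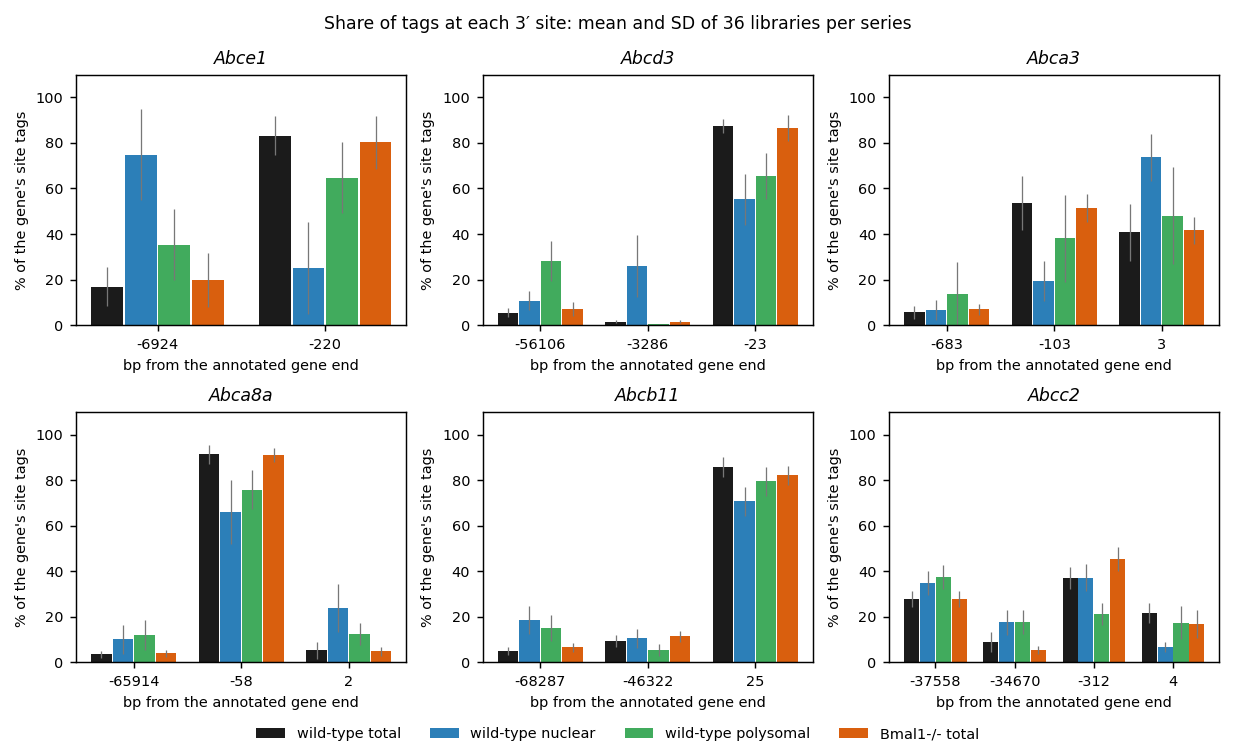
Share of a gene's tags at each polyadenylation site in percent, by site in the order of its distance from the annotated gene end, for Abce1, Abcd3, Abca3, Abca8a, Abcb11 and Abcc2 in the 4 series; bars are means of libraries and thin lines 1 SD. In Abce1 the early site holds 16.9% of tags in total RNA and 74.9% in nuclear RNA. Nuclear libraries had a mean of only 11.2 Abce1 site tags, below the minimum asked of a gene, which Abce1 met through total RNA. In Abcd3 different sites gain in nuclear and in polysomal RNA, and the polysomal one lies beside the annotated gene start.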

How the data were processed

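QuantSeq 3′ libraries of mouse liver were used as deposited raw counts per gene and per polyadenylation site, 1 column per library, which the authors made from their reads. STAR 2.4.2a, edgeR and HOMER and the builds mm10 and GRCm38.p5 are listed, per the submitters' processing notes, without roles. The site list gives positions, per the file headers and values, as other numbers (start and end). The strand setting of the gene counting is not given in the sources used here.

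Counts were tested with R 4.3.3 and edgeR 4.0.16 (TMM scaling, robust quasi-likelihood fit, Benjamini-Hochberg adjustment, threshold 0.05) on all genes whose mean over the fitted libraries reached 10 counts. Levels were the mean of 6 time-point differences, rhythms a cosine and sine of 24 h, and rhythm differences their interaction with series. Site usage was the same test on sites holding 5% or more of a gene's tags, in genes of 50 or more site tags, offset by the gene's site total plus 0.5. Sites were given to a gene on their strand within its span or up to 1000 bp past its end. Of 360 pairs of libraries within groups, 0 held identical values. The fits of the Bmal1-/- level, the wild-type rhythm and the Bmal1-/- rhythm difference were tried on simulated data with 200 changed genes. The site fit of Bmal1-/- usage was tried with 200 changed sites. No nuclear or polysomal fit was tried in this way. CPM is counts divided by the library's total. Figures and tables used Python 3.11.15, pandas 2.3.3 and matplotlib 3.10.9. Promoter windows are RefSeq's (GRCm38.p6).

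The members, their roles and the pathway list were chosen with earlier results of these data known. Members past the threshold were named with values, up to 10 per comparison by size of change with the rest by range, and some members are not reported by name here; pathway genes at most 3 in each direction, and sites up to 6 per comparison. Alternatives were DESeq2 1.42.0, its size factors, a minimum of 1 count, replicates 1 to 3 or 4 to 6 only, polysomal replicates 2 to 6, a replicate block and all series in one fit. Leaving out the libraries high in Xist, and the ZT2 libraries highest in Abcg8, was chosen after seeing the data.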

Additional observations from a re-analysis of the deposited data

Results flagged for a closer look

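Among 102 groups of 6 libraries of the members printed by time, 16 had 1 library far from the other 5 (its gap to the next value above 0.625 of the group's range), where chance gives about 1 in 20 independent groups. These groups are not all independent, since 1 library can stand out for both Abcg5 and Abcg8. At ZT2 the sterol pump genes stood out together, in 1 library of each series. In wild-type total RNA replicate 2 had 93.86 CPM of Abcg8 (group median 29.63) and 86.07 CPM of Abcg5 (26.84). In nuclear RNA replicate 2 had 176.4 CPM of Abcg8 (65.08) and 90.64 CPM of Abcg5 (20.01). In polysomal RNA replicate 5 had 78.08 CPM of Abcg8 (24.77) and 62.77 CPM of Abcg5 (20.97), and in Bmal1-/- total RNA replicate 5 had 101.4 CPM of Abcg8 (45.7) and 76.86 CPM of Abcg5 (44.54). Abcg5 also stood out in polysomal RNA at ZT22, replicate 1, at 43.35 CPM (14.09), a library with Xist and lung markers, and in Bmal1-/- RNA at ZT14, replicate 4, at 70.37 CPM (41.8).

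Abcb11 had a single high library at 4 times in wild-type total RNA: 400.4 CPM at ZT2 in replicate 4 (group median 237), 249.3 CPM at ZT6 in replicate 3 (204.9), 275.7 CPM at ZT14 in replicate 4 (120.1) and 194.6 CPM at ZT18 in replicate 5 (137.2). In polysomal RNA it reached 473.5 CPM at ZT2 in replicate 3 (215). Abca8b had 1 low polysomal library at ZT2, replicate 4, at 4.828 CPM (15.61). The daily course of Abcg8 and of Abcg5 was not the same in Bmal1-/- as in wild-type libraries, with an adjusted p of 0.000244 and 0.0209 in edgeR's interaction test.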

How the results depend on the processing

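Of 114 counts under alternatives, 95 stayed within 1.5 times the reported count and 19 did not. The share of all genes or sites called in the same fit is given in brackets. With replicates 4 to 6 only, the members called were 13 for the Bmal1-/- level (33.5%). For rhythm they were then 3 in wild-type total (5.32%), 1 in nuclear (2.07%) and 4 in polysomal RNA (5.54%). With replicates 1 to 3 only, they were 1 for nuclear (1.6%) and 2 for polysomal rhythm (1.12%). With a replicate block they were 11 for wild-type (25.4%) and 5 for nuclear rhythm (8.92%), and 4 for the rhythm difference of Bmal1-/- (7.04%). That block called 11 member sites for Bmal1-/- usage (14.6%) and 1 for rhythmic usage (0.895%). With all 4 series in one fit, 4 members were called for wild-type rhythm (8.58%), 4 for nuclear rhythm (7.89%) and 1 for the rhythm difference (1.57%). DESeq2 called 4 for nuclear rhythm (8.06%). Genes of at least 200 tags gave 19 nuclear (83.8%) and 21 polysomal sites (72.8%). Sites of at least 10% gave 17 (80.0%) and 19 (72.8%), with fewer sites tested in each. Of 877 alternatives for 100 gene values, 801 kept the call, 72 lost it and 4 reversed. Direction was compared for level values only, and peak times of rhythms were not compared. Any alternative where DESeq2 gave no adjusted p was left out. With replicates 4 to 6 only, the Bmal1-/- log2 change was 0.005172 for Abcb10, 0.2524 for Abcd2 and -0.01182 for Abce1, and with replicates 1 to 3 only the polysomal difference of Abcg2 was -0.01564. Of 323 alternatives for 68 site values, 302 kept the call, 21 lost it and 0 reversed. The cause was not tested. Same-numbered libraries were compared separately in each series with total RNA. In nuclear RNA r was over 0.1 in 35 of 36 pairs (mean 0.305) and 29 libraries correlated best with their own number, a hint of pairing that the labels do not state and that 1 pair (r = -0.0225) did not share. In both total and nuclear wild-type RNA, the ZT22 library high in Xist was replicate 5 and the ZT2 library high in Abcg5 and Abcg8 was replicate 2. The nuclear replicate block called 31 members for level (19 higher and 12 lower, as without it) and 0 for the rhythm difference. In polysomal and Bmal1-/- RNA 0 and 15 of 36 pairs were over 0.1, and 0 and 14 libraries correlated best with their own number, although Bmal1-/- and wild-type mice differ. Members with a mean below 10 counts were not tested.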
